A study of Mus musculus with 10 samples.

Results

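The genes examined here encode the matrix metalloproteinases (MMPs), the ADAMTS proteinases, 4 proteases of the related ADAM family and the tissue inhibitors of metalloproteinases (TIMPs). Within these families, members were taken by symbol. Every gene whose symbol begins with Mmp, Adamts or Timp and continues with a number was taken, together with *Adam8*, *Adam10*, *Adam12* and *Adam17*. This gave 50 of the 24454 genes counted, of which 23 were *Mmp* genes, 19 *Adamts* genes, 4 *Timp* genes and 4 *Adam* genes.

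All of these proteases cut proteins with a zinc ion in their active site, and most are made as inactive precursors that must lose a propeptide. MMPs cut collagens, gelatin, elastin, proteoglycans and cell surface proteins. ADAMTS proteinases cut proteoglycans such as versican and aggrecan or trim procollagens, and ADAM proteases release growth factors, cytokines and receptors from the cell membrane. TIMPs bind the active site and block it. In skin these enzymes are known for wound repair, hair follicle growth, inflammation and the breakdown of matrix around tumors. Tristetraprolin (TTP), the product of *Zfp36*, binds AU-rich elements in the 3′-UTR of mRNAs and speeds their decay.

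RNA was sequenced from full-thickness back skin that had been treated but held no tumor, from 5 WT and 5 Zfp36ΔARE libraries of C57BL/6 mice. Both groups received 1 application of the mutagen DMBA (400 nmol) at 7 weeks of age and then the phorbol ester TPA (10 nmol) 2 times a week for 20 weeks, so no untreated skin was compared here. Zfp36ΔARE mice, labelled TTP delta ARE, carry a deletion of the AU-rich instability element of *Zfp36* in its own locus and in every tissue, and their controls were littermates without it. The question was which genes differ between treated skin with and without this deletion. *Zfp36* itself had 2051, 2496, 1824, 2377 and 2011 normalized counts in WT replicates 1 to 5 and 5781, 5202, 5820, 6134 and 4196 in Zfp36ΔARE replicates 1 to 5, so the groups did not overlap. A normalized count is a count scaled by edgeR's TMM factors to the mean library size of 26680948. The log2 fold change of *Zfp36*, Zfp36ΔARE over WT, was 1.33 (SE 0.12, edgeR adjusted p = 0.00195).

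Libraries held 19595035 to 36419573 counts. The 50 genes took 0.223% to 0.296% of these in WT and 0.164% to 0.208% in Zfp36ΔARE skin. Zfp36ΔARE replicates 2 to 5 held 3349 to 4262 counts of 4 Y-linked genes and 4 to 15 counts of *Xist*, whereas Zfp36ΔARE replicate 1 and all WT libraries held at most 1 Y-linked count and at least 14829 of *Xist*. Genotype and these marks of sex therefore cannot be told apart except through Zfp36ΔARE replicate 1. WT replicates 3 and 1 had the lowest summed levels of 13 hair shaft markers, 3151 and 17114 normalized counts, against 77970 to 104504 in the other WT libraries and 162070 to 467091 in Zfp36ΔARE skin. Counts of passing genes among the members and in the lists of other genes are therefore also given without these 2 libraries.

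Most of the protease and inhibitor genes that changed were lower in Zfp36ΔARE skin. Of the 50 genes, 44 had enough counts to be tested. With an adjusted p below 0.05 and a fold change above 2, the thresholds of the study, 4 of them were lower, *Mmp9*, *Mmp10*, *Mmp19* and *Adamts4*, and 1 was higher, *Mmp20*. Over all 15543 genes tested, 8.31% passed by this rule, 6.64% lower and 1.67% higher. Without the condition on fold, 20 of the 44 were lower and 2 higher, against 19.1% lower and 15.3% higher over all genes. The median log2 fold change was -0.52 for the 44 genes and 0.01 for all genes, and 37 of the 44 estimates were below 0. All 5 Zfp36ΔARE values lay below all WT values in 15 of the 44 genes and above them in 2, against 11.9% and 11.2% over all genes. In whole skin, fewer cells of a type and less RNA per cell cannot be told apart.

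**Figure D1:**
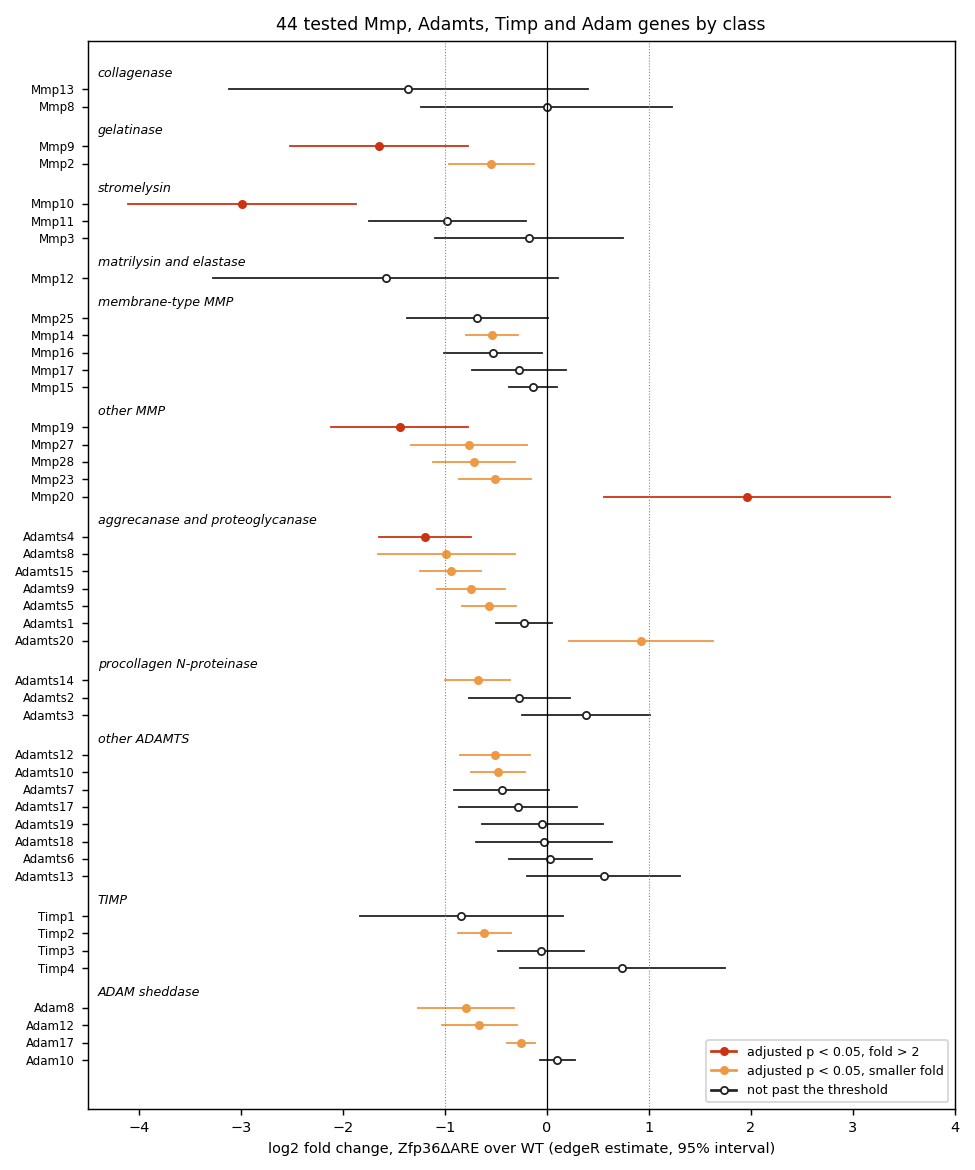
Log2 fold change (x axis, Zfp36ΔARE over WT) of the 44 tested genes, grouped by class on the y axis, with points for edgeR estimates from 5 libraries a group and lines for 95% intervals. Filled red points passed an adjusted p of 0.05 with a fold above 2, filled orange points passed with a smaller fold, open points did not pass, and dotted lines mark a fold of 2. The 20 lower genes are the filled points on the left, whereas *Mmp20* and *Adamts20* are the filled points on the right.

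When WT replicates 1 and 3 were left out, 11 of the 22 genes that had passed an adjusted p of 0.05 remained past it. They were *Mmp10*, *Mmp14*, *Mmp19*, *Mmp28*, *Adamts4*, *Adamts5*, *Adamts9*, *Adamts14*, *Adamts15* and *Timp2*, all lower, and *Adamts20*, higher. Over all genes the share past an adjusted p of 0.05 was 15.9% in that comparison, compared with 34.3% in the full one. The median log2 fold change of the 44 genes was then -0.30. A comparison of Zfp36ΔARE replicate 1, the single library of its group without Y-linked counts, with the 5 WT libraries passed 0 of 16373 genes in edgeR, and the median log2 fold change of the members was -0.829 in it.

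Both gelatinases were lower. *Mmp9* encodes gelatinase B, which cuts denatured and basement membrane collagens and is made by many leukocytes and by activated keratinocytes. *Mmp9* had 928, 896, 1257, 494 and 602 normalized counts in WT replicates 1 to 5 and 143, 146, 183, 457 and 417 in Zfp36ΔARE replicates 1 to 5. The groups did not overlap, although Zfp36ΔARE replicates 4 and 5 came close to WT replicate 4. Its mean was 835 ± 301 (SD, n = 5) in WT and 269 ± 154 (SD, n = 5) in Zfp36ΔARE skin, a log2 fold change of -1.65 (SE 0.39, edgeR adjusted p = 0.0138). Without WT replicates 1 and 3 the estimate was -1.32 and no longer passed (edgeR adjusted p = 0.0722). Macrophage markers, whose values are given with the other cell types, were lower as well, and their part in the result was not tested.

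*Mmp2* encodes gelatinase A, which fibroblasts make in quantity. *Mmp2* had 7867, 7180, 8423, 5159 and 5782 normalized counts in WT replicates 1 to 5 and 2942, 4805, 4601, 5502 and 5790 in the Zfp36ΔARE replicates. Replicates 4 and 5 overlapped between the groups. The log2 fold change of *Mmp2* was -0.54 (SE 0.19, edgeR adjusted p = 0.0481), a call that was lost when any of WT replicates 1 to 3 or Zfp36ΔARE replicates 1 to 4 was left out (edgeR adjusted p = 0.0533 to 0.105). *Mmp14* encodes the membrane-type enzyme that, together with TIMP2, activates the *Mmp2* product on the cell surface. *Mmp14* had 7747, 7199, 7141, 5439 and 5744 normalized counts in WT and 4055, 4534, 4206, 5257 and 4880 in Zfp36ΔARE skin, so the groups did not overlap. Its log2 fold change was -0.54 (SE 0.11, edgeR adjusted p = 0.00929), and it passed with each library left out in turn.

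**Figure D2:**
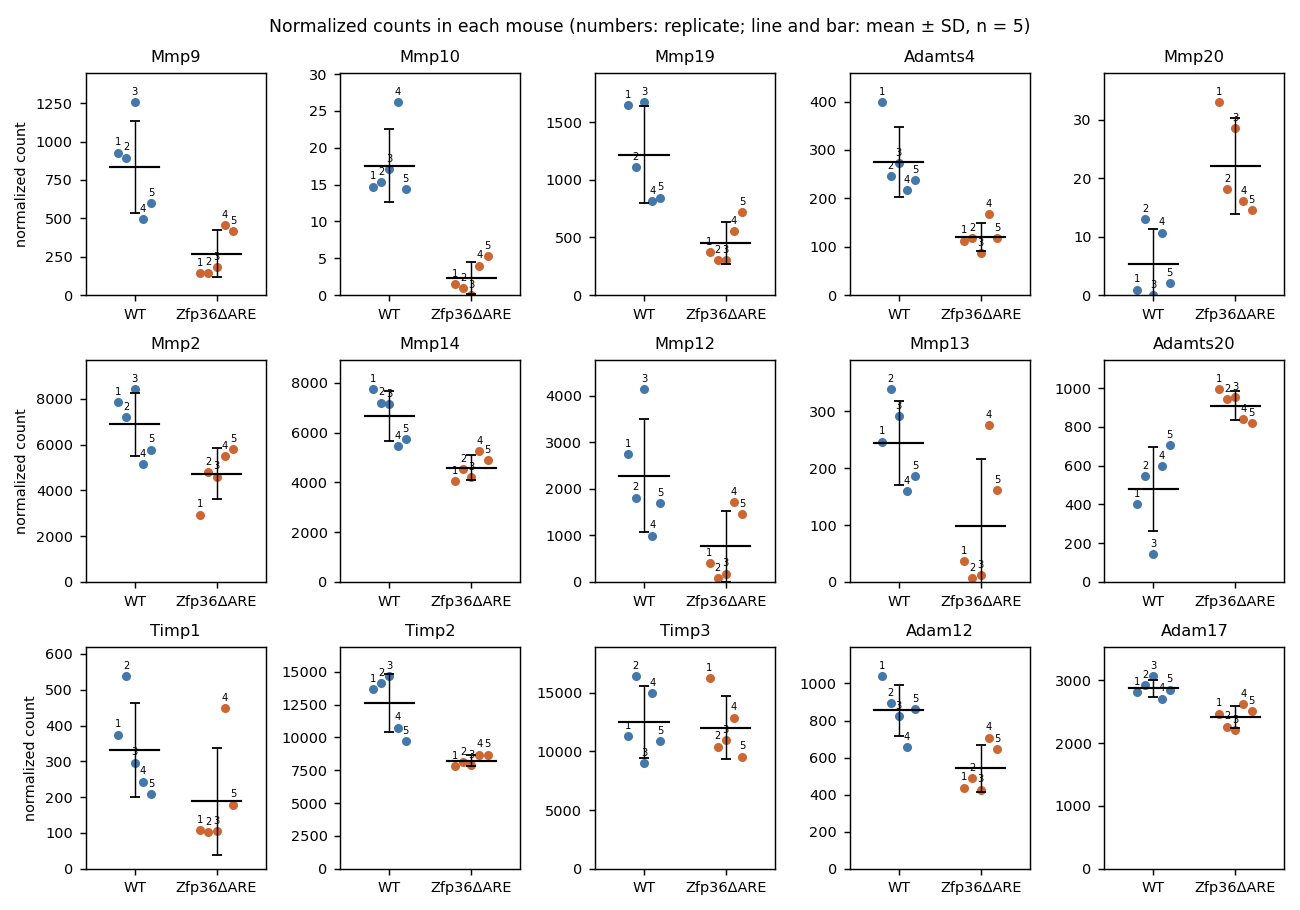
Normalized counts (y axis, linear from 0) of 15 genes in each library of the WT (blue) and Zfp36ΔARE (orange) groups, numbered by replicate, with the mean as a line and the SD as a bar (n = 5). The groups are apart for *Mmp9*, *Mmp10*, *Mmp19*, *Adamts4*, *Mmp20*, *Mmp14*, *Adamts20*, *Timp2* and *Adam17*, and Zfp36ΔARE replicates 4 and 5 lie among the WT libraries for *Mmp12* and *Mmp13*.

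Among the stromelysins, enzymes that cut proteoglycans, fibronectin and other MMP precursors, *Mmp10* (stromelysin-2) had the largest decrease of all 44 genes tested. *Mmp10* had 14.7, 15.35, 17.1, 26.2 and 14.4 normalized counts in WT replicates 1 to 5 and 1.499, 0.905, 0, 4.005 and 5.275 in the Zfp36ΔARE replicates. The groups were far apart, but the gene had at most 27 counts in any library. The log2 fold change was -2.99 (SE 0.51, edgeR adjusted p = 0.00538), and it ranged from -3.47 to -2.69 with 1 library left out. *Mmp3* (stromelysin-1), at 583 to 1458 normalized counts in WT and 224 to 1312 in Zfp36ΔARE skin, did not pass (log2 fold change -0.17, 95% interval -1.09 to 0.75, edgeR adjusted p = 0.767). *Mmp11* (stromelysin-3) missed the threshold by little (log2 fold change -0.98, edgeR adjusted p = 0.0512) and passed without WT replicate 5 or Zfp36ΔARE replicate 4 (edgeR adjusted p = 0.0486 and 0.00969). Its exons overlap those of *Chchd10*, so reads of both genes may mix if the counting ignored strand, a setting not given in the sources used here.

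*Mmp19*, which encodes a secreted MMP that cuts basement membrane proteins, was lower in every Zfp36ΔARE library. *Mmp19* had 1650, 1108, 1675, 814 and 846 normalized counts in WT replicates 1 to 5 and 369, 306, 304, 557 and 720 in the Zfp36ΔARE replicates. Its log2 fold change was -1.44 (SE 0.30, edgeR adjusted p = 0.00932) and remained past the threshold at -1.04 without WT replicates 1 and 3 (edgeR adjusted p = 0.0468). Exons of *Mmp19* overlap those of *Tmem198b* and of an antisense gene. *Mmp28*, *Mmp27* and *Mmp23* passed as well, with smaller decreases than *Mmp19*. *Mmp28* (epilysin, made by keratinocytes) fell by 0.71 on the log2 scale, *Mmp27* fell by 0.765 and *Mmp23* fell by 0.51, with edgeR adjusted p values of 0.0169, 0.0422 and 0.034. The call for *Mmp28* did not depend on any single library, but it was lost with replicate number as an added term (edgeR adjusted p = 0.0609). The calls for *Mmp27* and *Mmp23* were lost without WT replicate 1 or 3 or any of Zfp36ΔARE replicates 1 to 4 (edgeR adjusted p = 0.0507 to 0.0934), and that for *Mmp27* also without WT replicate 2.

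*Mmp20* encodes enamelysin, best known for processing enamel proteins in developing teeth, and was the single member that was higher by more than 2-fold. *Mmp20* had 0.921, 12.9, 0, 10.7 and 2.06 normalized counts in WT replicates 1 to 5 and 33.0, 18.1, 28.55, 16.0 and 14.5 in the Zfp36ΔARE replicates. All Zfp36ΔARE libraries lay above all WT libraries, but the gene had at most 44 counts in any library, and WT replicates 1 and 3 were the lowest. The log2 fold change was 1.97 (SE 0.63, edgeR adjusted p = 0.0366). The call was lost without WT replicate 1 or 5 or Zfp36ΔARE replicate 1, 2 or 3 (edgeR adjusted p = 0.0602 to 0.0803), and without WT replicates 1 and 3 together the estimate was 1.34 (edgeR adjusted p = 0.0922).

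*Mmp12* and *Mmp13* had 2-fold or larger mean differences that did not pass in edgeR but did with limma-voom. They were singled out after their values were seen. *Mmp12*, macrophage metalloelastase, had 2735, 1810, 4140, 995 and 1689 normalized counts in WT replicates 1 to 5 and 408, 87.8, 176, 1712 and 1453 in the Zfp36ΔARE replicates. Zfp36ΔARE replicates 1 to 3 lay below all WT libraries, and replicates 4 and 5 lay among them. The log2 fold change was -1.58 (SE 0.76, edgeR adjusted p = 0.127). *Mmp13*, the main interstitial collagenase of rodents, had the same split, with 247, 339, 292, 160 and 187 normalized counts in WT and 36.0, 6.34, 12.1, 276 and 161 in Zfp36ΔARE skin (log2 fold change -1.36, SE 0.79, edgeR adjusted p = 0.198). Without Zfp36ΔARE replicate 4 the estimate for *Mmp13* was -2.24 (edgeR adjusted p = 0.0496). With limma-voom the estimates were -2.39 for *Mmp12* and -2.66 for *Mmp13* (limma adjusted p = 0.0288 and 0.0237).

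Of the other collagenases, *Mmp8*, the neutrophil collagenase, had 5.82 to 37.8 normalized counts in WT and 2.997 to 36.9 in Zfp36ΔARE skin, with a log2 fold change of 0.00 (95% interval -1.23 to 1.23), and *Mmp1a* and *Mmp1b* had 0 and 4 counts in all libraries together. The membrane-type genes other than *Mmp14* did not pass. *Mmp16* and *Mmp25* had estimates of -0.53 and -0.68, whereas *Mmp15* and *Mmp17* were nearer to 0 at -0.14 and -0.28. *Mmp16* passed without WT replicate 2 (edgeR adjusted p = 0.0388). *Mmp24*, *Mmp7* and *Mmp21* did not pass the count filter, with at most 10, 1 and 1 counts in any library. *Mmp24* was tested by DESeq2, which gave -1.98 (DESeq2 adjusted p = 0.046), and by edgeR without the filter, which gave -1.91 (edgeR adjusted p = 0.0519).

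Of the 10 *Mmp* genes that lie next to each other on chromosome 9 (GRCm38, chr9:7272514-7699585, 427 kb), 7 were tested, and they did not move as a block. In map order the log2 fold changes were -1.36 for *Mmp13*, -1.58 for *Mmp12*, -0.17 for *Mmp3*, -2.99 for *Mmp10*, 0.00 for *Mmp8*, -0.765 for *Mmp27* and 1.97 for *Mmp20*. *Mmp10* and *Mmp27* passed lower and *Mmp20* passed higher. The other 3 genes of the cluster were *Mmp1b*, *Mmp1a* and *Mmp7*. Exons of *Mmp12* and *Mmp1b* overlap on opposite strands.

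**Figure D3:**
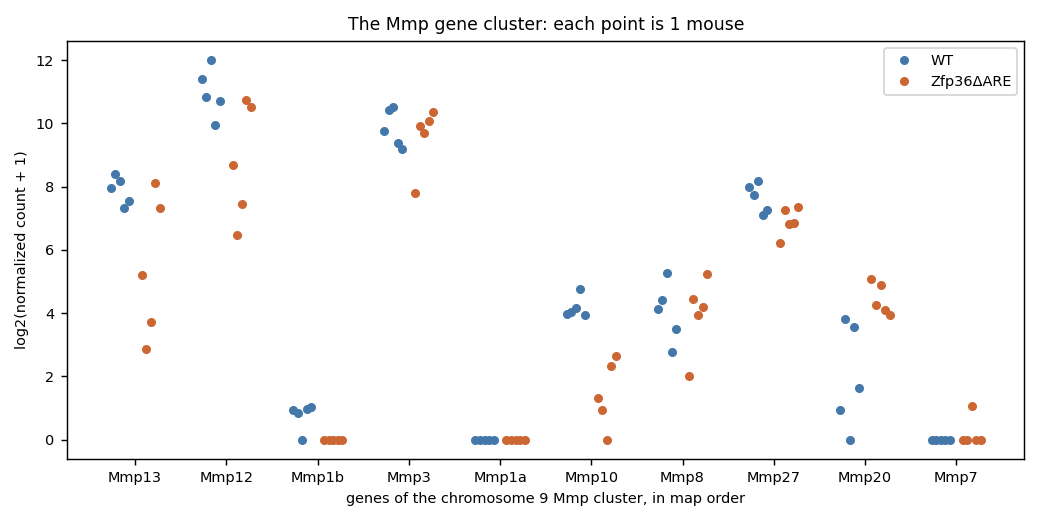
Log2(normalized count + 1) (y axis) of the 10 genes of the chromosome 9 cluster in map order (x axis), with 1 point for each WT (blue) and Zfp36ΔARE (orange) library. The groups are apart for *Mmp10* and *Mmp20* in opposite directions, overlap for *Mmp3*, *Mmp8* and *Mmp27*, and show a wide Zfp36ΔARE spread for *Mmp12* and *Mmp13*.

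Most of the cluster genes shared a sequence feature at their starts that the other members with a searched window lacked. The letters TGANTCA, which take in TGAGTCA, the site of AP-1, a factor that phorbol esters activate, were searched on both strands in 250 bases before and 50 bases after each start in RefSeq (GRCm38.p6). The motif is its own reverse complement. Of all 32851 windows, 7.81% held it. Windows were matched for 35 of the 50 genes, and 8 held it, all among the 10 cluster genes and 0 among the 25 others. No window was matched for *Mmp2*, *Mmp9*, *Mmp16*, *Mmp17*, *Mmp19* or *Adam12*, so these genes were not searched. The same holds for *Adamts4*, *Adamts5*, *Adamts6*, *Adamts7*, *Adamts8*, *Adamts10*, *Adamts15*, *Adamts16* and *Adamts19*. Sites are printed here because *Mmp10* and *Mmp20*, which passed in opposite directions, are among the genes that hold the letters, which are in capitals, in 5′ to 3′ order on the strand of the gene.
*Mmp10* (chr9:7502268-7502296, plus strand): tagcacccatgTGAGTCAtgcttagtgac
*Mmp12* (chr9:7347319-7347347, plus strand): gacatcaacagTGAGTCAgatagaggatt
*Mmp13* (chr9:7272468-7272496, plus strand): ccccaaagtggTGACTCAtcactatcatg
*Mmp3* (chr9:7445765-7445793, plus strand): ggaagcaattaTGAGTCAgttttcgggtg
*Mmp20* (chr9:7628125-7628153, plus strand): catttgagacaTGAATCAtcacttacagg
The motif began 63 bases before the start in *Mmp10*, 44 in *Mmp12*, 35 in *Mmp13*, 46 in *Mmp3* and 95 in *Mmp20*. The windows of *Mmp1a*, *Mmp1b* and *Mmp7* also held it, and those of *Mmp8* and *Mmp27* did not. The site of *Mmp20* reads TGAATCA, and the other 7 genes hold TGAGTCA or its reverse complement, which 5.2% of all windows held. A match is a string of letters and no measurement of binding.

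Among the proteoglycan-cutting ADAMTS genes, 5 of 7 were lower and 1 was higher at an adjusted p below 0.05. Over all genes 19.1% were lower and 15.3% higher. Without WT replicates 1 and 3 the numbers were 4 and 1 of 7, against 9.06% and 6.87% over all genes. *Adamts4* encodes aggrecanase-1, which cuts aggrecan, versican and brevican. *Adamts4* had 399, 246, 273, 217 and 237 normalized counts in WT replicates 1 to 5 and 112, 118, 86.75, 167 and 117 in the Zfp36ΔARE replicates. The groups did not overlap, and the SDs were 72.3 in WT and 29.05 in Zfp36ΔARE skin around means of 274.5 and 120.2. Its log2 fold change was -1.19 (SE 0.21, edgeR adjusted p = 0.00561), and it was -0.96 without WT replicates 1 and 3 (edgeR adjusted p = 0.0129), a fold below 2.

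The other aggrecanase, *Adamts5*, and the versican-cutting *Adamts9* and *Adamts15* were also lower in all Zfp36ΔARE libraries. Their log2 fold changes were -0.56, -0.74 and -0.94, with edgeR adjusted p values of 0.00938, 0.00848 and 0.00408. These 3 calls held with each library left out in turn and without WT replicates 1 and 3 together. *Adamts8* fell by 0.98 (edgeR adjusted p = 0.0314) from a low level of 39.2 to 57.35 normalized counts in WT, a call lost without WT replicate 1 or 3 or Zfp36ΔARE replicate 1 or 2 (edgeR adjusted p = 0.0584 to 0.0698). *Adamts1*, which cuts versican and aggrecan, did not pass (log2 fold change -0.23, 95% interval -0.50 to 0.05).

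*Adamts20*, whose mutation gives the belted coat through lost melanoblasts, went the other way. *Adamts20* had 402.5, 544, 143, 598 and 705 normalized counts in WT replicates 1 to 5 and 995, 942, 952, 838.5 and 819 in the Zfp36ΔARE replicates. No value overlapped, and WT replicate 3, the library with the lowest hair shaft markers, was the lowest. The log2 fold change was 0.92 (SE 0.32, edgeR adjusted p = 0.0468). The call was lost without WT replicate 1, 2 or 4 or any 1 Zfp36ΔARE replicate (edgeR adjusted p = 0.0509 to 0.1), and it held at 0.56 without WT replicates 1 and 3 (edgeR adjusted p = 0.0123). All 13 hair shaft markers also lay higher in every Zfp36ΔARE library than in any WT library. With a score of these markers as a covariate the estimate for *Adamts20* was 0.0033 (edgeR adjusted p = 0.997). That score and the genotype do not overlap, so the part of hair content in the result cannot be told apart from genotype.

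Of the 3 ADAMTS enzymes that remove the amino-terminal propeptide of procollagens, *Adamts14* was lower (log2 fold change -0.68, edgeR adjusted p = 0.00934). *Adamts2*, the main enzyme of this kind in skin, had 2280 to 3953 normalized counts in WT and 1478 to 3373 in Zfp36ΔARE skin (log2 fold change -0.27, edgeR adjusted p = 0.36). *Adamts3* had an estimate of 0.38 and did not pass either.

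Among the remaining ADAMTS genes, *Adamts10*, which acts on fibrillin microfibrils, fell by 0.48 (edgeR adjusted p = 0.0152) and *Adamts12* fell by 0.51 (edgeR adjusted p = 0.0315). The call for *Adamts10* held with each library left out in turn, though not without WT replicates 1 and 3 together, and that for *Adamts12* was lost without WT replicate 1 or 3 or Zfp36ΔARE replicates 1, 2, 3 or 4 (edgeR adjusted p = 0.0526 to 0.0741). *Adamts7*, *Adamts17*, *Adamts18*, *Adamts19*, *Adamts6* and *Adamts13*, the von Willebrand factor protease, did not pass, with estimates from -0.44 to 0.56. *Adamts13* passed, higher, without WT replicate 5 (edgeR adjusted p = 0.0449). *Adamts16* did not reach the count filter, although its normalized counts of 9.705 to 42.4 in WT lay above all those in Zfp36ΔARE skin, 0.905 to 5.245. Where it was tested it was lower, with -2.98 in DESeq2 (DESeq2 adjusted p = 1.9e-05), -2.93 in edgeR without the filter (edgeR adjusted p = 0.006) and -3.25 to -2.66 without WT replicate 4 or any 1 Zfp36ΔARE replicate (edgeR adjusted p = 0.00486 to 0.021). It did not pass with Zfp36ΔARE replicate 1 alone against WT (-2.25, edgeR adjusted p = 0.325).

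The inhibitors did not share 1 pattern. *Timp2*, which inhibits MMPs and also helps to activate the *Mmp2* product, had 13650, 14130, 14680, 10750 and 9738 normalized counts in WT replicates 1 to 5 and 7822, 8091, 7863, 8687 and 8686 in the Zfp36ΔARE replicates. The groups did not overlap, and the Zfp36ΔARE values lay within a narrow range. Its log2 fold change was -0.61 (SE 0.12, edgeR adjusted p = 0.00724), and it passed with each library left out in turn. *Timp3*, bound to the matrix and able to inhibit ADAM and ADAMTS enzymes too, had 11290, 16430, 9017, 14990 and 10850 normalized counts in WT and 16270, 10410, 10950, 12880 and 9557 in Zfp36ΔARE skin. The ranges overlapped throughout, and the log2 fold change was -0.06 (95% interval -0.48 to 0.36, edgeR adjusted p = 0.826).

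*Timp1*, the inhibitor most often induced by inflammation, had 375, 539, 296.5, 244 and 208 normalized counts in WT and 107, 101, 105, 449 and 179 in Zfp36ΔARE skin. Zfp36ΔARE replicates 1, 2, 3 and 5 lay below all WT libraries and replicate 4 lay above all of them but replicate 2, and the log2 fold change of -0.84 did not pass (edgeR adjusted p = 0.163). Without Zfp36ΔARE replicate 4 it was -1.44 (edgeR adjusted p = 0.0128). *Timp1* also passed with limma-voom (-1.13, limma adjusted p = 0.0489) but not with DESeq2 (-0.82, DESeq2 adjusted p = 0.119). *Timp4* had 69.1 to 281 normalized counts in WT and 65.9 to 301 in Zfp36ΔARE skin and did not pass (log2 fold change 0.74, edgeR adjusted p = 0.218), but it did, at 1.197, without WT replicate 3 (edgeR adjusted p = 0.0492).

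Of the sheddases, *Adam17*, which releases TNF and ligands of the EGF receptor, was lower by a small amount. *Adam17* had 2814, 2917, 3068, 2705 and 2850 normalized counts in WT replicates 1 to 5 and 2469, 2263, 2204, 2616 and 2512 in the Zfp36ΔARE replicates. The groups did not overlap, and the log2 fold change was -0.25 (SE 0.06, edgeR adjusted p = 0.0146). *Adam10*, which cuts Notch receptors and cadherins, had 2879, 3629, 2798, 3303 and 2973 normalized counts in WT and 3575, 3243, 3149, 3489 and 3298 in Zfp36ΔARE skin. Its ranges overlapped, and the log2 fold change was 0.10 (95% interval -0.07 to 0.28, edgeR adjusted p = 0.309).

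*Adam12*, or meltrin alpha, had 1041, 895, 824, 656 and 863 normalized counts in WT and 438, 491, 427, 708 and 646 in Zfp36ΔARE skin. The ranges overlapped in Zfp36ΔARE replicate 4 alone, and the log2 fold change was -0.66 (SE 0.17, edgeR adjusted p = 0.0153). *Adam8*, an ADAM of leukocytes, had 962 to 1446 normalized counts in WT and 386.5 to 873 in Zfp36ΔARE skin (log2 fold change -0.79, SE 0.21, edgeR adjusted p = 0.0196). Without WT replicates 1 and 3 the estimates for *Adam8*, *Adam12* and *Adam17* were -0.66, -0.57 and -0.23, and none passed (edgeR adjusted p = 0.0994, 0.0699 and 0.0546). Exons of *Adam17* overlap those of *Iah1*.

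Levels between genes were compared as normalized counts per kilobase of gene length. In WT skin *Timp2* was the most abundant at 3476 ± 608 (SD, n = 5), followed by *Timp3* at 2674 ± 658, *Mmp14* at 2562 ± 387 and *Mmp2* at 2263 ± 454. The 3 that followed *Timp2* differed from each other by less than their SDs. *Adam10*, the next, was at 679 ± 75.2, far below them, and *Adam17* and *Mmp12* were both at about its level with 631 ± 29.5 and 630.4 ± 336. In Zfp36ΔARE skin *Timp3* came first at 2566 ± 571 and *Timp2* second at 2272 ± 118.5, a gap smaller than the SD of *Timp3*.

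**Figure D4:**
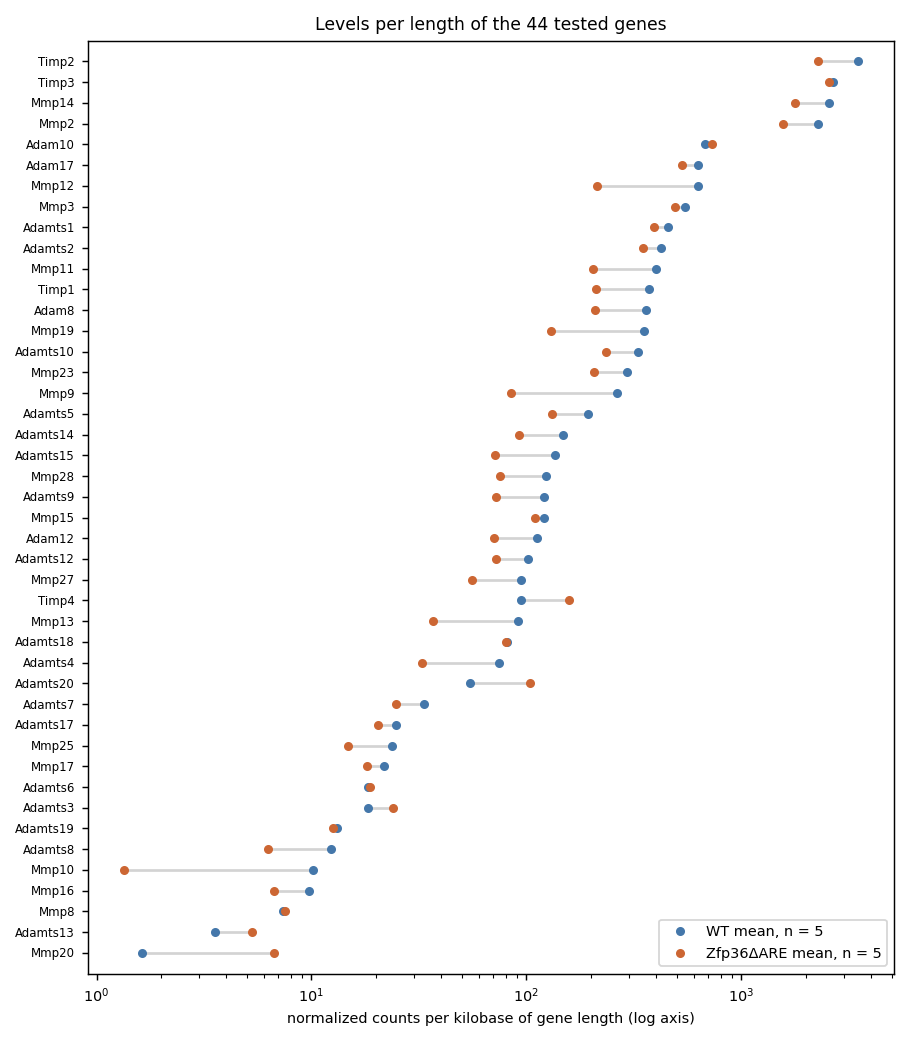
Mean normalized counts per kilobase of gene length (x axis, log scale) of the 44 tested genes in WT (blue, n = 5) and Zfp36ΔARE (orange, n = 5) skin, in order of the WT level (y axis). *Timp2*, *Timp3*, *Mmp14* and *Mmp2* stand above all others in both groups, and the grey lines are long for *Mmp12*, *Mmp19*, *Mmp9* and *Mmp10*.

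Because of these few genes, sums over families follow them. The 23 MMP genes summed to 7819 ± 1685 normalized counts per kilobase in WT and 4981 ± 1145 in Zfp36ΔARE skin, and *Mmp2* and *Mmp14* gave 28.1% to 30.2% and 28.3% to 36.0% of the sum in WT. The 4 TIMP genes summed to 6617 ± 988 and 5207 ± 548. The 19 ADAMTS genes summed to 2248 ± 316 and 1745 ± 169, and the 4 ADAM genes to 1782 ± 92.5 and 1539 ± 139.9. Each of these sums overlapped between the groups. The MMP sum divided by the TIMP sum was 0.893 to 1.49 in WT and 0.613 to 1.26 in Zfp36ΔARE skin, so the groups overlapped in this ratio as well.

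The 3′-UTRs of the 50 genes were searched for the AU-rich letters that TTP binds, in the longest annotated 3′-UTR of each gene (GENCODE vM21, GRCm38, on the strand of the gene). The pentamer ATTTA was in 78% of the members and 69.5% of 14416 tested genes with a 3′-UTR, the heptamer TATTTAT in 36% and 29.3%, and the nonamer TTATTTATT in 8% and 7.8%. The heptamer contains the pentamer and the nonamer contains both. The members' 3′-UTRs were longer, with a median of 1849.5 bases against 1307 over all genes. The 4 genes with the nonamer were *Mmp9*, *Adamts5*, *Adamts9* and *Adamts10*, and all 4 were lower. These sites are printed here, since they hold the longest AU-rich letters searched, with the nonamer in capitals, with 1 of the 3 heptamers of *Adamts4*, which was lower by more than 2-fold.
*Mmp9* (chr2:164955294-164955322, plus strand): tccagcccttTTATTTATTatgtatgagg
*Adamts5* (chr16:85859713-85859741, minus strand): tgtgatgaaaTTATTTATTcttatttaac
*Adamts9* (chr6:92773871-92773899, minus strand): atgtttgaaaTTATTTATTgtgatgtaat
*Adamts10* (chr17:33553291-33553319, plus strand): cagttgaaagTTATTTATTgggtaaccct
*Adamts4* (chr1:171259759-171259787, plus strand): ttgaagtttgcTATTTATatgctcttttt
Lower genes were found both with and without the letters. Of the 17 tested members with the heptamer 7 were lower, and of the 27 without it 13 were. Over all genes tested the shares lower were 18.7% with the heptamer and 19.8% without it, and 18.3% with the nonamer and 19.6% without it. *Mmp10*, with the largest decrease, had 1 pentamer in a short 3′-UTR, and *Mmp14*, *Timp2* and *Adam8* had 0. *Adamts20*, which was higher, had 3 heptamers in its longest annotated 3′-UTR, and *Mmp20* had 0. The last heptamer of *Adamts20* lies at chr15:94320986-94321014 on the minus strand, well before the end of the gene at 94270163. Whether the *Adamts20* mRNA of this skin carries that 3′-UTR was not tested.

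Genes that act before or after the proteases were read from lists of activators, inhibitors, substrates and shed proteins. Counts are at an adjusted p below 0.05 at any fold, which 19.1% of all genes passed lower and 15.3% higher, or 9.06% and 6.87% without WT replicates 1 and 3. Of 14 tested genes of MMP activation and inhibition, 8 were lower and 0 higher, and 4 were lower without these 2 libraries. *Plaur*, the urokinase receptor that localizes plasmin formation, had a log2 fold change of -1.17 (edgeR adjusted p = 0.0061). *Lrp1*, an endocytic receptor that clears MMPs, fell by 0.48 (edgeR adjusted p = 0.00666), and *Bsg*, an inducer of MMPs, had an estimate of 0.01 (edgeR adjusted p = 0.936). The median of the list was -0.38.

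Of 12 tested ADAMTS-like and related genes, 7 were lower and 0 higher, with a median of -0.46, and 5 were lower without WT replicates 1 and 3. *Adamtsl3* and *Adamtsl2*, which encode ADAMTS-like matrix proteins without a protease domain, had log2 fold changes of -2.28 and -1.42 (edgeR adjusted p = 0.00602 and 0.0129), whereas *Adam9* and *Rhbdf2*, a partner of ADAM17, had estimates of -0.01 and 0.12 and did not pass. Of 13 tested proteases of other classes, 6 were lower and 0 higher with and without these libraries, and the median was -0.33. *Ctss*, a cysteine protease of antigen-presenting cells, *Htra3*, *Prss23* and the mast cell chymase *Cma1* had log2 fold changes of -1.29, -1.07, -1.13 and -1.74 (edgeR adjusted p = 0.00437 to 0.00896). The lysosomal *Ctsb* and *Ctsd*, the list's most counted genes, had estimates of 0.22 and -0.03 and did not pass.

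Of 22 tested matrix genes that these proteases cut, 14 were lower and 0 higher, with a median of -0.57, and 9 were lower without WT replicates 1 and 3. *Fn1*, *Fbn1*, *Nid1* and *Eln*, which encode fibronectin, fibrillin-1, nidogen-1 and elastin, had log2 fold changes of -1.02, -1.18, -1.004 and -1.17 (edgeR adjusted p = 0.00369 to 0.00896), whereas the fibrillar collagen genes *Col3a1* and *Col1a2* had estimates of -0.59 and -0.15 and did not pass. Of 14 genes of collagen processing and crosslinking, 10 were lower and 0 higher, with a median of -0.70, and 7 were lower without these libraries. *Loxl1*, a crosslinking oxidase of elastic fibers, fell by 1.43 (edgeR adjusted p = 0.004), and *Serpinh1*, the collagen chaperone, and *Pcolce* had log2 fold changes of -0.78 and -0.68 (edgeR adjusted p = 0.00649 and 0.0239).

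Of 18 ligands and receptors that are shed by these proteases or cut by ADAMTS13, 5 were lower and 2 higher, near the 19.1% and 15.3% over all genes, with a median of -0.04. Without WT replicates 1 and 3, 4 were lower and 0 higher. *Csf1r*, *Vwf* and *Egf* had log2 fold changes of -1.504, -1.11 and -1.04 (edgeR adjusted p = 0.00446, 0.00636 and 0.0198), *Notch1* rose by 0.51 (edgeR adjusted p = 0.0353), and *Cdh1* had an estimate of 0.28 and did not pass. Several genes of these lists are also markers of cell types, such as *Csf1r* of macrophages, *Cma1* of mast cells, *Vwf* of endothelial cells and *Fbn1* and the collagen genes of fibroblasts.

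Summed markers of some cell types were lower in Zfp36ΔARE skin. Those of T cells, neutrophils and basal keratinocytes overlapped between the groups, and those of hair were higher. The summed normalized counts of 14 macrophage markers were 29839 to 56029 in WT and 15085 to 21950 in Zfp36ΔARE skin, without overlap, and 13 of the 14 were lower at an adjusted p below 0.05, with or without WT replicates 1 and 3. Sums of 8 mast cell markers were 6197 to 15504 and 3423 to 4345. Of these 8, 7 were lower, and *Kit* was higher (log2 fold change 0.29, edgeR adjusted p = 0.00885). Sums of 10 endothelial markers were 6735 to 14529 and 4219 to 5686. Sums of 12 fibroblast markers overlapped, at 195247 to 407884 and 111723 to 286730, with 9 of the 12 lower, or 7 without WT replicates 1 and 3. Those of 10 adipocyte markers were 61505 to 125080 and 42561 to 54335. Those of 14 skeletal muscle markers overlapped, at 254390 to 1224837 and 148321 to 324446, with the highest sum in WT replicate 3. Of these 14, 13 were lower, or 1 without WT replicates 1 and 3.

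**Figure D5:**
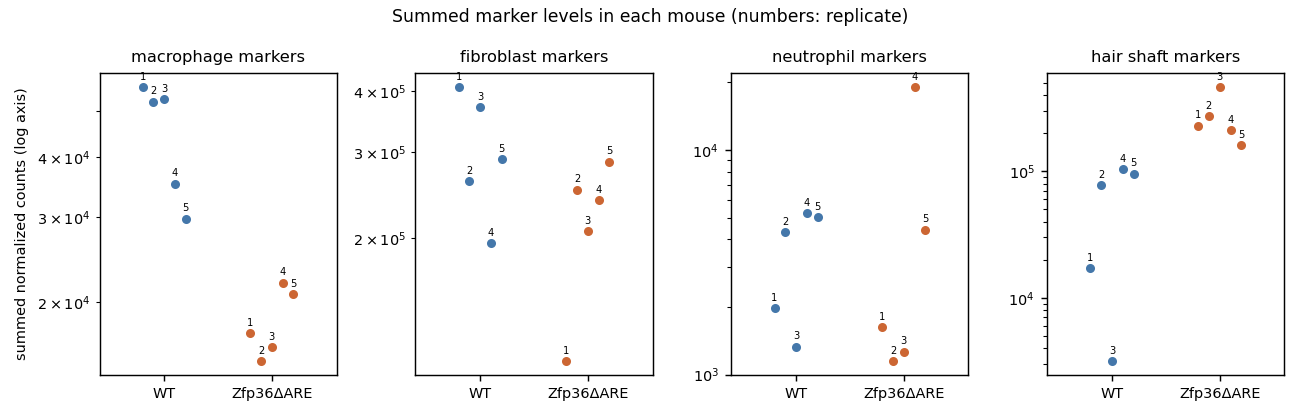
Summed normalized counts (y axis, log scale) of macrophage, fibroblast, neutrophil and hair shaft markers in each WT (blue) and Zfp36ΔARE (orange) library, numbered by replicate. The groups are apart for macrophage and hair shaft markers and overlap for fibroblast and neutrophil markers, and Zfp36ΔARE replicate 4 is the highest for neutrophil markers.

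Zfp36ΔARE replicate 4, where *Timp1*, *Mmp13* and *Mmp11* were at WT levels, had the highest sum of 10 neutrophil markers, 19073 against 1150 to 4424 in the other Zfp36ΔARE libraries and 1334 to 5255 in WT. Of that sum 95.9% came from *S100a8* and *S100a9*, which keratinocytes also make, and the other 8 markers summed to 778.4, against 185.6 to 454.9 in the other Zfp36ΔARE libraries and 443.7 to 776.2 in WT. *Ly6g*, a defining marker of that list, was near 0 with a mean of 0.244 in WT and 0 in Zfp36ΔARE skin. Replicates 4 and 5 also had the highest macrophage sums of the Zfp36ΔARE group, 21950 and 20751, and suprabasal keratinocyte sums of 444591 and 436122, within the WT range of 329580 to 487510, against 202810 to 224095 in replicates 1 to 3. Of the 44 tested genes, 17 had their highest Zfp36ΔARE value in replicate 4 and 14 in replicate 5. Sums of T cell markers (717 to 1295 in WT and 768 to 1061 in Zfp36ΔARE skin), basal keratinocyte markers (228441 to 346568 and 193506 to 365104) and inner root sheath markers (40007 to 683867 and 713409 to 1255192) overlapped between the groups except the last, and the part of any cell type in the results was not tested.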

How the data were processed

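Per the labels and the methods of the study, the authors dropped reads whose mean quality was below 20, aligned the others to mm10 with STAR 2.5.2b, counted fragments per gene with featureCounts of Subread 1.5.0-p1 and deposited the raw counts. The study tested them with DESeq2. The strand setting and the handling of fragments from several genes are not given in the sources used here. Rows without a gene name numbered 2, held 7.38e-05% of counts and were left out.

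edgeR 4.0.16 (R 4.3.3) computed TMM factors, applied filterByExpr and ran the quasi-likelihood test with robust dispersions and genotype as the only term. Adjusted p-values are Benjamini-Hochberg values over 15543 genes, and p-values measure only the spread between these libraries. The median biological coefficient of variation was 14.9%. No libraries were identical. The SE is the log2 fold change divided by the square root of F. Alternatives used DESeq2 1.42.0 and limma 3.58.1 (voom). The script was tested on simulated data.

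The gene families and the lists of other genes were chosen with earlier results of these data known, and members within the families were taken by symbol. Every gene is named. Values in every library are given for genes past both thresholds and for *Mmp9*, *Adam12*, *Mmp2*, *Mmp14*, *Timp1*, *Timp2*, *Timp3*, *Adam10* and *Adam17*, and *Adamts20*, *Mmp12* and *Mmp13* were added after their values were seen. From each list of other genes, up to 4 past both thresholds and the 2 others with the most counts are named. Some items are not reported here. Promoter sequences are from RefSeq (GRCm38.p6) and 3′-UTRs from GENCODE vM21.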

Additional observations from a re-analysis of the deposited data

Results flagged for a closer look

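In each group of 5 libraries, the normalized counts of the 44 tested genes were examined for a library far from the others, by the gap to its nearest neighbour divided by the range of the group (above 0.71). Of 88 groups, 3 passed, and chance gives about 1 in 20, or 4.4. *Mmp10* was highest in WT replicate 4, at 26.2 normalized counts against 14.4 to 17.1 in the other WT libraries (0.776). *Adamts8* was highest in WT replicate 3, at 57.35 against 39.2 to 43.7 (0.754). *Timp1* was highest in Zfp36ΔARE replicate 4, at 449 against 101 to 179 (0.776), and the summed neutrophil markers were also highest in that library, where *S100a8* and *S100a9* gave 95.9% of that sum.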

How the results depend on the processing

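By the study's thresholds 4 members were lower and 1 higher, and at an adjusted p below 0.05 alone 20 were lower and 2 higher. Over all genes 8.31% passed both thresholds and 34.3% passed at any fold. With limma-voom 9 were lower and 2 higher by both thresholds, which 8.12% of all genes passed. With DESeq2, which tested 46 members, these counts were 6 and 1, and 23 and 2 at any fold. The shares of all genes with DESeq2 were 8.96% and 36.3%. Without a count filter 1 was higher at any fold, where 24% of all genes passed in either direction. With at least 10 counts in every library 0 were higher by both thresholds and 1 at any fold, since *Mmp10* and *Mmp20* were then not tested. The shares of all genes were 7.38% and 35% in that fit. With 1 library left out, the members lower by both thresholds were 4 to 9 and higher 0 to 2, those lower at any fold 15 to 21 and higher 0 to 3, and the log2 fold change of *Zfp36* was 1.28 to 1.41. Of all genes, 5.36% to 9.74% passed both thresholds and 21.3% to 34.3% at any fold in these fits. The 9 came without Zfp36ΔARE replicate 4, the 15 without WT replicate 1 or 3, the 7 without WT replicate 5. Of the 22 called members, 15 passed in all 10 of these fits. Without WT replicates 1 and 3 together, 2 were lower and 0 higher by both thresholds, and 10 lower and 1 higher at any fold. The shares of all genes also fell in that alternative, to 3.35% and 15.9%. For the lists this alternative was chosen after seeing the data, and 4 of 14 genes of activation and inhibition and 9 of 22 matrix substrates were then lower and 0 of 18 shed proteins higher. With the 6 libraries without Y-linked counts alone, 1 of them Zfp36ΔARE and assumed to vary like the others, all 4 counts were 0 in a comparison where 0 of 16373 genes passed. Then the log2 fold change of *Zfp36* was 1.43 (edgeR adjusted p = 0.282), that of *Mmp9* -2.54 and that of *Mmp10* -3.45 (edgeR adjusted p = 0.295 for both), and the median of the members -0.829 against -0.52. With the hair shaft score as a covariate all 4 counts were 0, where 0.0836% of all genes passed. In that fit the log2 fold change was 0.25 for *Mmp20* and 0.0033 for *Adamts20* (edgeR adjusted p = 0.947 and 0.997). It was -3.04 for *Mmp10* and 1.14 for *Zfp36* (edgeR adjusted p = 0.0909 and 0.0285), and the median of the members was -0.24. This score and the genotype do not overlap and cannot be told apart.

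The sources used here do not say whether replicate numbers pair mice. Correlations of same-numbered deviations were -0.192 to 0.085, and no library correlated best with its own number. With 5 libraries a group this does not exclude pairing. In the fit with the replicate block, 3 members were lower and 0 higher by both thresholds and 10 lower and 0 higher at any fold. Over all genes 6.32% passed both thresholds and 17.6% at any fold in that fit, against 8.31% and 34.3% without the block. Of the 22 calls 10 remained. Among genes past both thresholds, the calls for *Mmp9* (edgeR adjusted p = 0.0542) and *Mmp20* (0.0904) were lost. The other calls lost were those for *Mmp2*, *Mmp23*, *Mmp27*, *Mmp28*, *Adamts8*, *Adamts12*, *Adamts20*, *Adam8*, *Adam12* and *Adam17* (edgeR adjusted p = 0.0541 to 0.119).

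The signs of some estimates that did not pass in the main fit reversed, and the cause was not tested. Not all of these were small, since *Timp4* was 0.74, *Adamts13* 0.56 and *Adamts3* 0.38 in the main fit. *Mmp8* was 0.0229 with DESeq2, 0.0065 without a filter, 0.52 without WT replicates 1 and 3, 1.10 with the hair shaft covariate and -0.41 to 0.40 with 1 library left out. *Mmp3* was 0.0072 without WT replicates 1 and 3, 0.30 with the covariate and -0.36 to 0.082 with 1 library left out. *Adamts18* was 0.0317 with limma-voom, 0.077 with the replicate block and -0.24 to 0.12 with 1 library left out. *Adamts19* was 0.0307 with limma-voom, 0.47 with the libraries without Y-linked counts and -0.22 to 0.13 with 1 library left out. *Adamts6* was -0.0578 without WT replicates 1 and 3, -0.15 with the covariate and -0.049 to 0.19 with 1 library left out. *Timp3* was 0.38 and *Timp4* -1.002 with the libraries without Y-linked counts, and *Timp3* was -0.19 to 0.0587 with 1 library left out. With the covariate *Mmp15* was 0.0587, *Mmp17* 0.0586, *Adamts17* 0.0814, *Adamts3* -0.17, *Adamts13* -0.24 and *Adam10* -0.0103. Of 918 values of single genes under the alternatives, 748 kept their direction and side of the threshold, 113 lost the threshold, 15 gained it and 42 reversed.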
